A study of Mus musculus with 6 samples.

Results

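The regions described here are peaks of DNA methylation in the mouse heart that the depositors' annotation gives to 2 or more genes at once. A region was taken when the same interval on chromosomes 1 to 19 occurred in the deposited table with at least 2 different gene symbols, and Gm20388, a gene model that recurs along the table, was left out of the count. The rule used positions and names only, no read counts. It found 6374 shared peaks among 213957 distinct regions, of which 100845 were peaks on these chromosomes, so shared peaks made up 6.32% of the peaks. The other peaks were 61639 given to 1 gene and 32832 given to no gene.

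The study profiled DNA methylation in ventricular tissue of male C57BL/6 mice at postnatal day 1 (P1) and at postnatal day 14 (P14), with 3 libraries per age that the design text calls biological replicates. The labels list no genotype besides the strain and no treatment. The labels name the left ventricle, while the tissue protocol speaks of ventricles with the septum in place and the atria removed. Sonicated genomic DNA was captured with a protein domain that binds methylated CpG sites, and the captured fragments were counted by sequencing (MBD-seq). Read counts in such data follow both the methylation of a region and how many CpG sites it holds, and no expression was read from which the tissue could be checked by its markers. In bulk tissue, methylation in fewer cells and less methylation per cell cannot be told apart.

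DNA methylation in mammals is the addition of a methyl group to cytosine, mainly where cytosine is followed by guanine (CpG). Most CpG sites in gene bodies and between genes are methylated, while CpG-dense promoters (CpG islands) are mostly free of it, with imprinted genes, where only the copy from the mother or the father is methylated, as known exceptions. Genes can overlap, lie nested in each other's introns, start back to back or stand close to a neighbour. Antisense transcripts, host genes of microRNAs and retrogenes inside an intron are well known forms of overlap.

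The promoters printed here lay wholly inside shared peaks and carry the main groups of the results. Each is RefSeq's window from 250 bases before to 50 bases after a start (GRCm38.p6), 5′ to 3′ on the gene's strand, with every CpG in capitals. The first 4 belong to imprinted genes. Mcts2 (chr2:152686898-152687197, plus strand, 25 CpG) sits in an intron of H13, Nap1l5 (chr6:58907077-58907376, minus strand, 17 CpG) in an intron of Herc3, and Nnat (chr2:157559828-157560127, plus strand, 17 CpG) in an intron of Blcap. Igf2r, the receptor that clears insulin-like growth factor 2 (chr17:12769657-12769956, minus strand, 34 CpG), shares its peak with the antisense transcript Airn.
Mcts2: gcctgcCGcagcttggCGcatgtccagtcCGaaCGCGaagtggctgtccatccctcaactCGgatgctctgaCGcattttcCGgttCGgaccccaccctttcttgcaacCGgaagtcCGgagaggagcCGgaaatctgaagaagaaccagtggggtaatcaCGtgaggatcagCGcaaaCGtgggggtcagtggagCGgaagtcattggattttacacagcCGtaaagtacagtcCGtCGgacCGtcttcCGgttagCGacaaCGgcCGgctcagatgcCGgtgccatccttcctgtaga
Nap1l5: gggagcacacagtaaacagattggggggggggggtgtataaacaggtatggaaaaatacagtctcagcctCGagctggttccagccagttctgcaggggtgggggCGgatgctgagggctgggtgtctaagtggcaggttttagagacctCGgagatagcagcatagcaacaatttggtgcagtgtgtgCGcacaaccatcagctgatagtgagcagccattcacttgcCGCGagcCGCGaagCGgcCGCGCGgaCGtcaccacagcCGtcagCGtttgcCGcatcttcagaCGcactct
Nnat: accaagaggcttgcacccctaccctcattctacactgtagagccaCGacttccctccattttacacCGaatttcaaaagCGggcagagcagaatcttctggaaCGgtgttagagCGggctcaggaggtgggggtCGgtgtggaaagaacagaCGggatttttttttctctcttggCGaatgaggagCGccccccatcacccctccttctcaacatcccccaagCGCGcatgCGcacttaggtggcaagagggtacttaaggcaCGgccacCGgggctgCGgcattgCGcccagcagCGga
Igf2r: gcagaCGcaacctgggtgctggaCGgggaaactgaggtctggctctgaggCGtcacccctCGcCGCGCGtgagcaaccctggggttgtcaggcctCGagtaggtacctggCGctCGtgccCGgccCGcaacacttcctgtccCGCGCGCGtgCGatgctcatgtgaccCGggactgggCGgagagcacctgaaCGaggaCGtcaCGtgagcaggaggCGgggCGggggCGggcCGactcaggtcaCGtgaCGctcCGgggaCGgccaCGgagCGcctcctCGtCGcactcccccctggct
The next 3 promoters were among 19 in shared peaks with 20 or more CpG and were picked after their values were seen. Fkbp6 (chr5:135349864-135350163, minus strand, 32 CpG) is a co-chaperone of meiosis and of the piRNA pathway. Henmt1 (chr3:108940307-108940606, plus strand, 31 CpG) methylates piRNA ends. Dmrtb1 (chr4:107683540-107683839, minus strand, 28 CpG) is a transcription factor of spermatogonia. Of all RefSeq windows on chromosomes 1 to 19, 9.83% held at least as many CpG as that of Fkbp6.
Fkbp6: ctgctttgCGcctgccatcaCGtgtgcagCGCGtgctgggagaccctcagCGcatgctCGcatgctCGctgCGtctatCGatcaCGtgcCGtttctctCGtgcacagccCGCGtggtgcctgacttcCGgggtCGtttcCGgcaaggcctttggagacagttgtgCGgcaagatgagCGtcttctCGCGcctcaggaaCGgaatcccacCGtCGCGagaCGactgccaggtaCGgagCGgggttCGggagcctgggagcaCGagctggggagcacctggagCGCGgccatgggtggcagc
Henmt1: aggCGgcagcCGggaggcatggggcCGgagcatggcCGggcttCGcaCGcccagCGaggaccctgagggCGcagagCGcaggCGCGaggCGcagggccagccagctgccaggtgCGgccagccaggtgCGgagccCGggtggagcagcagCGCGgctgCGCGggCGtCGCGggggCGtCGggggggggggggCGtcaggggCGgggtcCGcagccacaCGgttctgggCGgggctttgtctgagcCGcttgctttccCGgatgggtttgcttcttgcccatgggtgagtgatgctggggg
Dmrtb1: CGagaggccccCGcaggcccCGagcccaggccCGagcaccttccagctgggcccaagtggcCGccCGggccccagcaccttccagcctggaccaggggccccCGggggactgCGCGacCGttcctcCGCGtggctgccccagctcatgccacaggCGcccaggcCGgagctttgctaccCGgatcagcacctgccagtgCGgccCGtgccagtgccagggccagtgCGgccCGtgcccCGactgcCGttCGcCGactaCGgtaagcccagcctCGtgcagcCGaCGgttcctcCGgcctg
The last 3 are promoter windows inside shared peaks whose signal differed between the ages by the test given further on. Gm17029 (chr4:148959914-148960213, plus strand, 5 CpG) starts within the peak it shares with Pex14, and this peak was higher at P14. B3galt2 (chr1:143640447-143640746, plus strand, 5 CpG), a galactosyltransferase gene nested in Cdc73, and Adal (chr2:121141843-121142142, plus strand, 3 CpG) lie in peaks that were lower at P14. The span of Adal, an adenosine deaminase-like gene, overlaps that of Lcmt2 on the opposite strand. These 3 windows were poor in CpG, and 62.4% of all windows held at least 5.
Gm17029: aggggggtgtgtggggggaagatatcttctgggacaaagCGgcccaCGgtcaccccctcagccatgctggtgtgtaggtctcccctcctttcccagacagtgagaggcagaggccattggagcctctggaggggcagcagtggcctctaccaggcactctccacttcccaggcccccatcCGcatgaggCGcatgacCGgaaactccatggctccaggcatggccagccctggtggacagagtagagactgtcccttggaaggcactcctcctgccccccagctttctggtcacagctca
B3galt2: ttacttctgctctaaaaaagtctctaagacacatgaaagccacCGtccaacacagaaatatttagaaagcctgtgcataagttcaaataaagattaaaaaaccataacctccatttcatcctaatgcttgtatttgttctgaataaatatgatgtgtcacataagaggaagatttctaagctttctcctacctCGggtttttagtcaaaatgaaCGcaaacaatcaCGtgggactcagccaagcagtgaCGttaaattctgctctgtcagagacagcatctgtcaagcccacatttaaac
Adal: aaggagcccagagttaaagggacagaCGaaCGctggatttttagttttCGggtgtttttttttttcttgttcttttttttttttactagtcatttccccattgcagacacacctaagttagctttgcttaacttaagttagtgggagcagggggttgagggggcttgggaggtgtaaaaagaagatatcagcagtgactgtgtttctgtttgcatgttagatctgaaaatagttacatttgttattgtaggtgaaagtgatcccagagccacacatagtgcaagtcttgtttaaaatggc

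Most shared peaks carried exactly 2 symbols. There were 5861 such peaks, 450 with 3 symbols, 47 with 4, 5 with 5, 8 with 6, 1 with 7 and 2 with 8. Together they carried 7155 symbols, and in 13 peaks the symbols differed only in the case of their letters (FAM48A and Fam48a, for example), so these 13 may be spellings of 1 gene. Numbered gene models (Gm followed by digits) took part in 35.2% of the shared peaks, RIKEN clone names in 16.2%, names made from a genomic clone in 12.4% and microRNA genes in 2.97%. At least 2 symbols of none of these kinds were present in 2608 peaks (40.9%).

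Many shared peaks belonged to the same genes. The 6374 peaks came from 4106 distinct sets of symbols, and 1135 sets with more than 1 peak held 3403 of them, so the peaks of such a set are not independent places. AL929563NA1 and Tshz2, a zinc-finger gene, shared 29 peaks on chromosome 2. Atp5o, a subunit of mitochondrial ATP synthase, and Itsn1, an endocytic scaffold, shared 28 on chromosome 16. Gnaz and Rtdr1 shared 19 on chromosome 10, and Pigk and St6galnac5 shared 17 on chromosome 3. Among these 4 sets, 1 peak of Pigk and St6galnac5 was lower at P14 by the test below and no other peak passed it. Their median log2 changes were -0.02, -0.17, 0.08 and -0.03 in the order given.

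By chromosome, the share of peaks with 2 or more genes went from 2.66% on chromosome 13 to 9.93% on chromosome 7. Chromosome 11 had the most, 683 of its 7254 peaks (9.42%), followed by chromosome 7 with 639 and chromosome 2 with 635.

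RefSeq positions were found for 82.1% of the symbols, and 4000 peaks had every symbol matched. The spans of at least 2 matched genes overlapped 1614 shared peaks (25.3%), in whole or in part. In 4463 peaks (70%) the span of 1 matched gene overlapped the peak, and in 297 no matched span did. Both percentages are of all shared peaks, including those with unmatched symbols, so 25.3% may be too low. Over all peaks with genes, 92.5% of the matched assignments had the gene's span overlapping the peak and 97.6% had it within 3 kb. These shares include the peaks of 1 gene, and symbols without a match could not be placed. A part of the shared peaks carried a symbol from farther away. In 942 (14.8%) at least 1 symbol had its RefSeq span over 3 kb from the peak, and 808 of these kept fewer than 2 symbols without it. Fgfr2, a fibroblast growth factor receptor, was such a symbol in 111 peaks, the last of them 2.86 Mb from its span, and Atp5o in 34. Without the 808 peaks, 5390 shared peaks were tested, with 22 gained (0.408%), 88 lost (1.63%) and a median log2 change of 0.03 by the test within peaks given further on.

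The arrangement of the genes could be read for pairs with a known strand. In 1064 peaks the spans overlapped on opposite strands, as for a gene and its antisense partner. In 595 the genes stood side by side on 1 strand, in 384 they were divergent, with starts facing away from each other, in 179 they converged on their ends, and in 139 the spans overlapped on 1 strand. The strand of at least 1 gene was not known in 1441 peaks, and 2572 held more than 2 symbols or a symbol without a match.

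Shared peaks had a larger median width than peaks of fewer genes and a shorter median distance to gene starts. The median width was 993 bp (quartiles 747 and 1500 bp) for shared peaks, 875 bp for peaks of 1 gene and 800 bp for peaks of no gene. The nearest RefSeq start of any gene was at a median of 5946 bp from a shared peak, 20790 bp from a peak of 1 gene and 26214 bp from a peak of no gene. A start lay inside 5.62% of the shared peaks and within 1 kb of 16.5%, against 1.87% and 4.39% of the peaks of 1 gene. With 3 genes the median distance was 2560 bp. These distances follow in part from the rule, because places where genes crowd are the places where a peak gets several names. Starts on chromosome 18 were not used here.

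**Figure D1:**
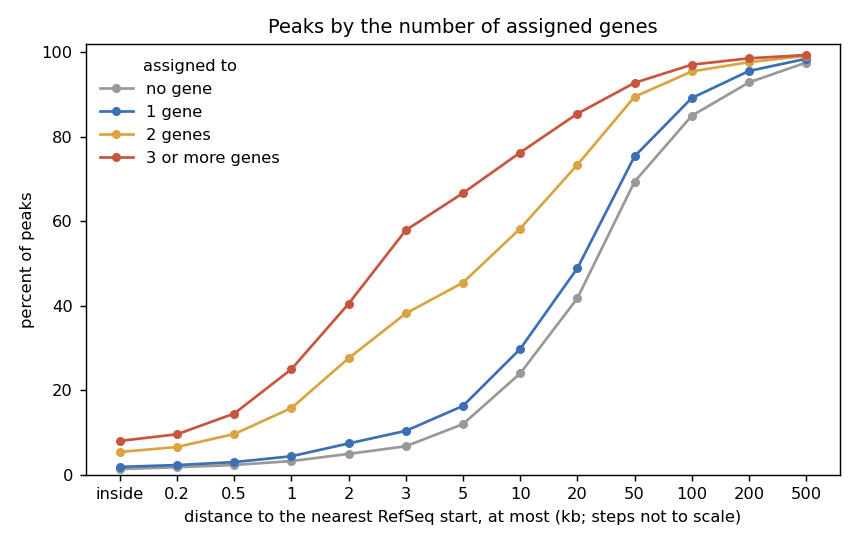
Percent of peaks (vertical axis) whose nearest RefSeq start lies inside the peak or within the distance on the horizontal axis (kb, steps not to scale), for peaks given to no gene, 1 gene, 2 genes and 3 or more genes. At 1 kb the curves stand at 3.25%, 4.39%, 15.8% and 25%, and they keep this order to 500 kb.

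The 6 libraries held 16284216 to 21512072 reads over all regions. Reads in peaks made up 11.6%, 13.4% and 12.6% of them in P1 replicates 1 to 3 and 31.3%, 18.4% and 17% in P14 replicates 1 to 3, so P14 replicate 1 stood apart. Shared peaks took 0.817%, 0.941% and 0.861% of all reads at P1 and 2.82%, 1.45% and 1.18% at P14. The 2 ages did not overlap in this share. A shared peak held a median of 17, 19 and 18 reads in the P1 libraries and 63, 33 and 22 in the P14 libraries. In P1 replicate 1, 109 shared peaks had 0 reads, against 0 to 9 in the other libraries.

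Relative to the reads in peaks, the ages overlapped. Shared peaks took 7.05%, 7.03% and 6.84% of the peak reads at P1 and 9.02%, 7.86% and 6.92% at P14. The means were 6.97% ± 0.116 (SD, n = 3) and 7.93% ± 1.05 (SD, n = 3), a difference of 0.961 percentage points (exact permutation test, two-sided, p = 0.3, adjusted p = 0.6 over 2 such measures). With 3 libraries against 3 the smallest possible p is 0.1. Without P14 replicate 1 the difference was 0.42 percentage points. 

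The density of shared peaks was also set against that of peaks of 1 gene within each library, as the difference of the medians of log2(CPM in peaks per kb + 0.1). This difference was 0.0446, 0.0349 and -0.00216 in the P1 libraries and 0.0994, 0.0581 and -0.0169 in the P14 libraries. The means, 0.0258 ± 0.0247 and 0.0469 ± 0.059 (SD, n = 3 each), differed by less than the spread between replicates (exact permutation test, two-sided, p = 0.6, adjusted p = 0.6). In each age 1 library lay below 0.

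**Figure D2:**
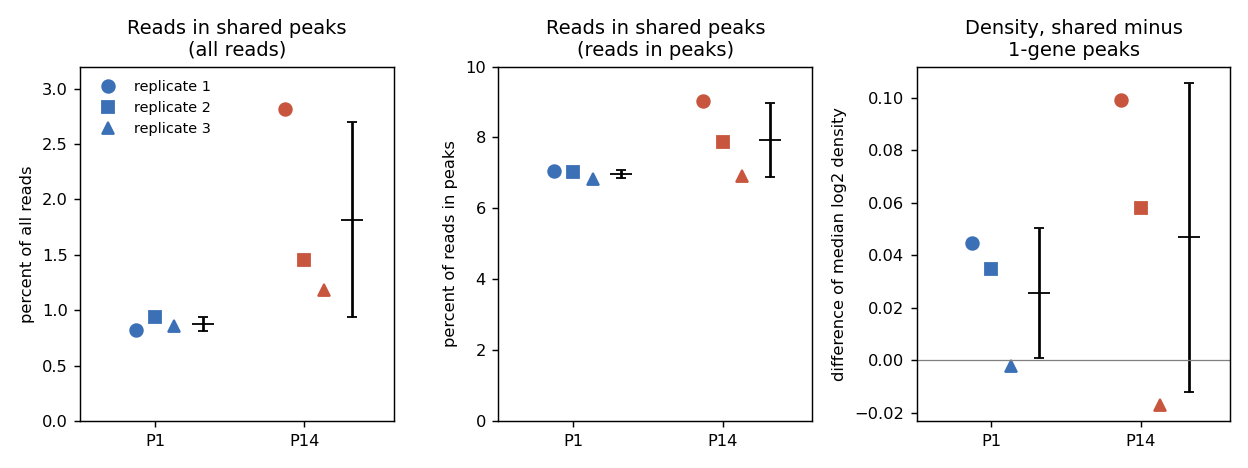
Share of reads in shared peaks per library as a percent of all reads (left) and of the reads in peaks (middle), and the difference in median log2 density between shared peaks and peaks of 1 gene (right), at P1 (blue) and P14 (red); markers are replicates, black bars the mean and SD. The ages are apart in the left panel, with P14 replicate 1 at 2.82%, and overlap in the other panels.

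The question of the design is which regions differ in methylation between P1 and P14. Of the 6374 shared peaks, 6164 passed a filter on low counts that was set on all regions. Over all 209063 regions tested, edgeR's quasi-likelihood test called 0 (0% of the regions) at an adjusted p under 0.05, and the smallest adjusted p of a shared peak was 0.214. At an unadjusted p under 0.05 stood 48109 regions (23.0%), among them 2412 shared peaks (39.1% of those tested). On this scale the median log2 change was 0.77 for shared peaks, 0.73 for peaks of 1 gene and 0.12 for all regions. All regions include the stretches between peaks, and the higher medians of peaks go with the larger share of reads in peaks at P14. DESeq2 called 24 shared peaks, all higher at P14 (0.389% of those tested). It called 0.0944% of the peaks of 1 gene as higher, and 0.0392% of all regions as higher and 0.000478% as lower. With limma-voom 0 shared peaks and 0 regions in all were called. Without P14 replicate 1, edgeR called 64 shared peaks as higher (1.04%, against 0.169% of all regions) and 2 as lower (0.0324%, against 1.43%), and among peaks of 1 gene 0.437% were higher and 0.0185% lower.

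The shared peaks with the smallest p on this scale were named by rule. Those higher at P14 were the peaks of Gm17029 and Pex14 (log2 change 1.69 ± 0.28 SE), of Gm10964, Gm16520 and Olfml3 (2.04) and of Dnase2a and Mast1 (2.74 ± 0.5 SE). Those lower were the peaks of C1qtnf7 and Gm15865 (-2.78 ± 0.6 SE), of Syn3 and Timp3 (-2.5 ± 0.54 SE) and of Derl2 and Mis12 (-1.7 ± 0.38 SE). Each had an edgeR adjusted p of 0.214, and all 6 also passed the test within peaks.

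Within peaks, reads were scaled so that peaks as a whole did not differ between the libraries (TMM over peaks). On this scale 24 shared peaks were higher at P14 (gained) and 99 were lower (lost), by edgeR's quasi-likelihood test with Benjamini-Hochberg adjustment over 96775 peaks. Gained peaks were 0.389% of the shared peaks tested, against 0.105% of all peaks tested, and lost peaks were 1.61%, against 2.42% of all peaks. Shared peaks made up 23.5% of all gained peaks and 4.23% of all lost peaks, and 6.37% of the peaks tested. The difference between these shares was not tested. At an unadjusted p under 0.05 by the same test stood 7364 of the 96775 peaks, 496 of them among the 6164 shared peaks tested. In counts simulated for the peaks, the test called 68 of 100 changed 4-fold and 6 of 100 changed 2-fold. A peak not called may thus still have changed. In all 24 gained peaks every P14 library was above every P1 library, and in 98 of the 99 lost peaks every P14 library was below. The calls were made from the same values, so this nearly follows from them. In total every P14 library was above in 406 shared peaks (6.59%, against 4.84% of all peaks). It was below in 337 (5.47%, against 7.05% of all peaks).

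These calls changed with the libraries used and with the scaling. Leaving out a library also makes its group smaller, and the part of this was not tested. Without P14 replicate 1 edgeR called 0 gained and 0 lost shared peaks, and 0 among all peaks. On this subset 347 shared peaks had an edgeR unadjusted p under 0.05, against 496 with all libraries. Among all peaks these numbers were 5893 and 7364. Other tools were not run on this subset. All 123 called peaks kept their direction without P14 replicate 1. This was nearly fixed in advance, because the ages did not overlap in the 24 gained and in 98 of the 99 lost peaks. Without that library the medians of the gained and lost peaks were 1.1 and -1.75 in place of 1.31 and -2.15. By CPM, P14 replicate 1 was the highest P14 library in 21 of the 24 gained peaks and P1 replicate 1 the highest P1 library in 82 of the 99 lost peaks, against 46.9% and 39.1% of the shared peaks not called. Without P1 replicate 1, 2 or 3 the counts were 9, 0 and 1 gained and 17, 46 and 44 lost, and without P14 replicate 2 or 3 they were 6 and 18 gained and 71 and 67 lost. In these 5 fits 0.00930% to 0.0775% of all peaks were gained and 0.338% to 1.45% lost, and the shared peaks stood at 0% to 0.292% and 0.276% to 1.15%. With library totals in place of TMM, 21 were gained and 38 lost (0.341% and 0.616%, against 0.0765% and 0.723% of all peaks). Scaling peaks to the reads between them moved the median of all peaks by 1.18 on the log2 scale. With it 710 shared peaks were gained and 4 lost (11.5% and 0.0649%, against 7.52% and 0.0527% of all peaks).

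The changes did not form a single continuous spread. Of the shared peaks tested, 5052 (82%) lay between -0.5 and 0.5 on the log2 scale within peaks, 6 lay between -1.5 and -1, and 179 (2.9%) lay at -1.5 or below, among them all 99 lost peaks. Peaks of 1 gene had the same gap, with 126 between -1.5 and -1 and 2330 (3.93%) at -1.5 or below. On the upper side there was no gap, with 664 peaks between 0.5 and 1, 108 between 1 and 1.5 and 25 above.

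The low group was also counted in raw reads. In all 179 the mean read count at P14 was under that at P1, while this held for 5 of the other 5985 shared peaks tested. This nearly follows from the cut on the log2 change that set the group, because every P14 library had more reads in peaks. The raw reads are therefore no separate sign that the group stands apart. The medians of the low group were 26, 17 and 17 reads in the P1 libraries and 8, 12 and 9 in the P14 libraries, against 17, 20 and 19 and 67, 35 and 24 in the others. These peaks were narrower, with a median width of 718 bp against 1031 bp, and P1 replicate 1 was the highest P1 library in 142. The part of that library and of how the peaks were called in this gap was not tested.

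**Figure D3:**
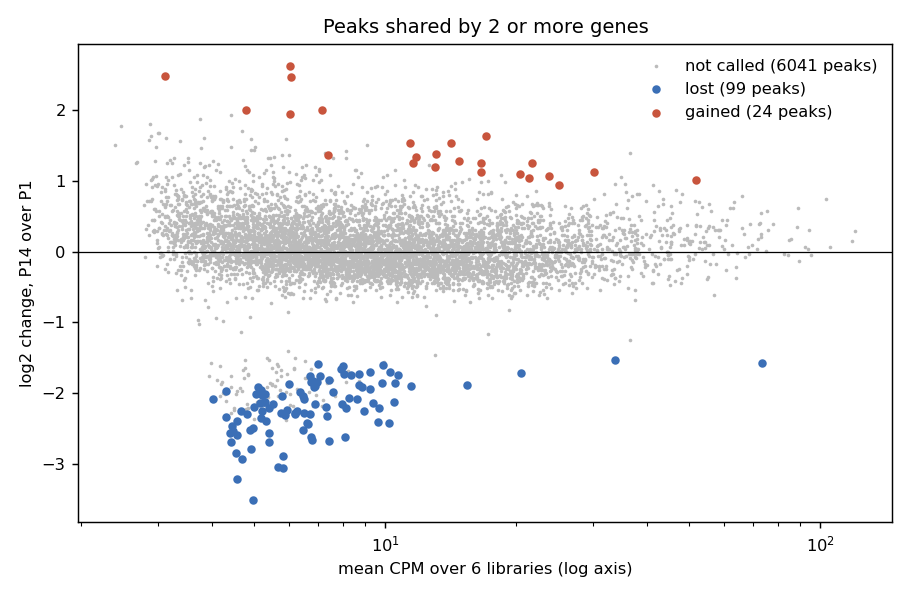
Log2 change from P1 to P14 within peaks (vertical axis) against the mean CPM over the 6 libraries (log axis) for the 6164 shared peaks tested; red, 24 gained; blue, 99 lost; grey, not called. The lost peaks form a cloud below -1.5 with 6 peaks in the band above it, while the gained peaks sit on the upper edge of the main cloud.

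The gained peaks had log2 changes from 0.94 to 2.63, with a median of 1.31 and a median width of 1754 bp. In 17 of the 24 at least 1 symbol was a numbered, RIKEN or clone-named model. In the peak of Adck4 (a kinase of coenzyme Q synthesis), Gm15567 and Numbl (a Notch pathway adaptor) on chr7:27256974-27257685, the P1 libraries held 2, 2 and 2 reads and the P14 libraries 48, 23 and 9. All P14 libraries were above P1, which the rule for naming the largest gains required. The log2 change was 2.48 ± 0.61 SE (edgeR adjusted p = 0.0378). The peak of AL731663NA1, AL731663NA2 and Gm13146 on chr4:147186416-147189045 went from 4, 3 and 4 reads to 146, 27 and 10, with a log2 change of 2.63 ± 0.6 SE (edgeR adjusted p = 0.0299). Here P14 replicate 1 carried most of the signal, and without it the log2 change was 1.63.

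Bop1, a ribosome assembly factor, and Scx (scleraxis), a transcription factor of tendon and heart valve nested within it, shared a peak on chr15:76457202-76458410 with 6, 5 and 1 reads in the P1 libraries and 139, 14 and 21 in the P14 libraries. Its log2 change was 2.47 ± 0.62 SE (edgeR adjusted p = 0.0401), and 1.52 without P14 replicate 1. Dnase2a, a lysosomal nuclease, and Mast1, a microtubule-associated kinase, converge on chr8:84911855-84912943, where the reads went from 8, 8 and 2 to 87, 48 and 27. The 3 P14 libraries were close here, at 11.4 ± 1.46 CPM against 2.88 ± 1.72 CPM at P1 (SD, n = 3), and the log2 change of 2 ± 0.43 SE was 1.97 without P14 replicate 1 (edgeR adjusted p = 0.0259 with all libraries and 0.203 without that library).

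The immune GTPase genes Gimap1 and Gimap5, with Gm3345, shared a peak on chr6:48742438-48743366 with 6, 3 and 3 reads in the P1 libraries and 73, 28 and 15 in the P14 libraries (log2 change 2.01 ± 0.51 SE). Fbxl8, Hsf4 (a heat shock factor) and Tradd (an adaptor of the tumour necrosis factor receptor) shared a peak on chr8:105267460-105269186 with 4, 13 and 21 reads in the P1 libraries and 151, 66 and 35 in the P14 libraries (1.53 ± 0.37 SE). In both peaks the lowest P14 library lay above the highest P1 library after scaling, which the rule for naming them required. The other 4 of the 10 largest gains that the rule names were AL627077NA1 with Gm13140 (1.94), 4932443L11Rik with Evi5l (1.63), Cux1 with Gm16599 (1.53) and Abi3, Phospho1 and Zfp652 (1.38). The spans of 4932443L11Rik, Gm16599 and Zfp652 lay over 3 kb from these peaks.

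Among the remaining gained peaks were several with well-known genes, named after their values were seen. Dmpk, the kinase gene of myotonic dystrophy, and its neighbour Six5, a homeobox gene, shared a peak on chr7:19091438-19093106 with 6.89 ± 1.51 CPM at P1 and 16.3 ± 5.41 CPM at P14 (SD, n = 3; log2 change 1.26 ± 0.32 SE). Axin2, a negative regulator and target of Wnt signalling, and Gm11670 had 14 ± 3.66 and 28.8 ± 7.26 CPM (1.04 ± 0.27 SE). Ace, which makes angiotensin II, and Gm11651 had a log2 change of 1.26 ± 0.29 SE. Insl3 with Jak3, a cytokine receptor kinase, had 1.07 ± 0.26 SE. The smallest change among the gained peaks was 0.94 ± 0.24 SE at Gm17029 and Pex14, a peroxisomal import factor, where the P1 libraries held 40, 29 and 39 reads and the P14 libraries 250, 120 and 91. This peak's value stood at 0.92 without P14 replicate 1. Just short of the threshold was the divergent pair Abhd8 and Mrpl34, with 0.95 ± 0.26 SE (edgeR adjusted p = 0.0544).

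The lost peaks had log2 changes from -3.52 to -1.54, with a median of -2.15 and a median width of 777 bp. C1qtnf7, a secreted relative of complement C1q, and Gm15865 shared the peak with the largest change, on chr5:43555086-43555778. The P1 libraries held 31, 14 and 11 reads and the P14 libraries 3, 5 and 2, which gave a log2 change of -3.52 ± 0.63 SE (edgeR adjusted p = 0.0245). Timp3, an inhibitor of matrix metalloproteinases nested within the synapsin gene Syn3, shared a peak on chr10:86346977-86347749 with 23, 18 and 10 reads in the P1 libraries and 3, 5 and 3 in the P14 libraries (-3.22 ± 0.6 SE). Both peaks had fewer reads in every P14 library than in any P1 library, although P14 had more reads in peaks.

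Dnm3, a dynamin, and Pigc, an enzyme of GPI anchor synthesis whose span lies over 3 kb away, were given a peak at chr1:162018395-162019194 with 26, 19 and 17 reads in the P1 libraries and 0, 8 and 6 in the P14 libraries (-3.05 ± 0.68 SE). Evi2b, which lies within the Ras regulator gene Nf1, had 22, 11 and 16 reads in the P1 libraries and 1, 8 and 4 in the P14 libraries in their common peak (-2.85 ± 0.66 SE), and its second symbol EVI2B is the same name in capitals. The peak of FAM48A and Fam48a, also spellings of the same name, went from 23, 20 and 11 to 10, 3 and 4 reads (-2.79 ± 0.53 SE). In these peaks the P14 reads were few in every library, so counting error was large relative to the count. The others of the 10 largest losses were Galnt1 with Gm7701 (-3.06), 4930470G03Rik with Pgbd1 (-2.94), 3110056K07Rik with the proteasome gene Psma3 (-2.89), Gm9747 with Irs1, the insulin receptor substrate (-2.69), and Cmss1 with Filip1l (-2.69). Single libraries moved 6 of the 10 values by over 1.5 times in fold. All 10 stayed below 0, which their choice without overlap of the ages made nearly certain. Without P14 replicate 1 the log2 changes were -2.18 at Dnm3, -2.07 at Evi2b, -2.1 at Psma3, -2.27 at Galnt1 and -1.97 at Cmss1. Without P1 replicate 1 they were -2.83 at C1qtnf7, -2.14 at Galnt1 and -2.28 at Psma3. Without P14 replicate 2 they were -4.85 at Galnt1, -3.7 at Evi2b, -3.72 at Dnm3 and -3.55 at Psma3.

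**Figure D4:**
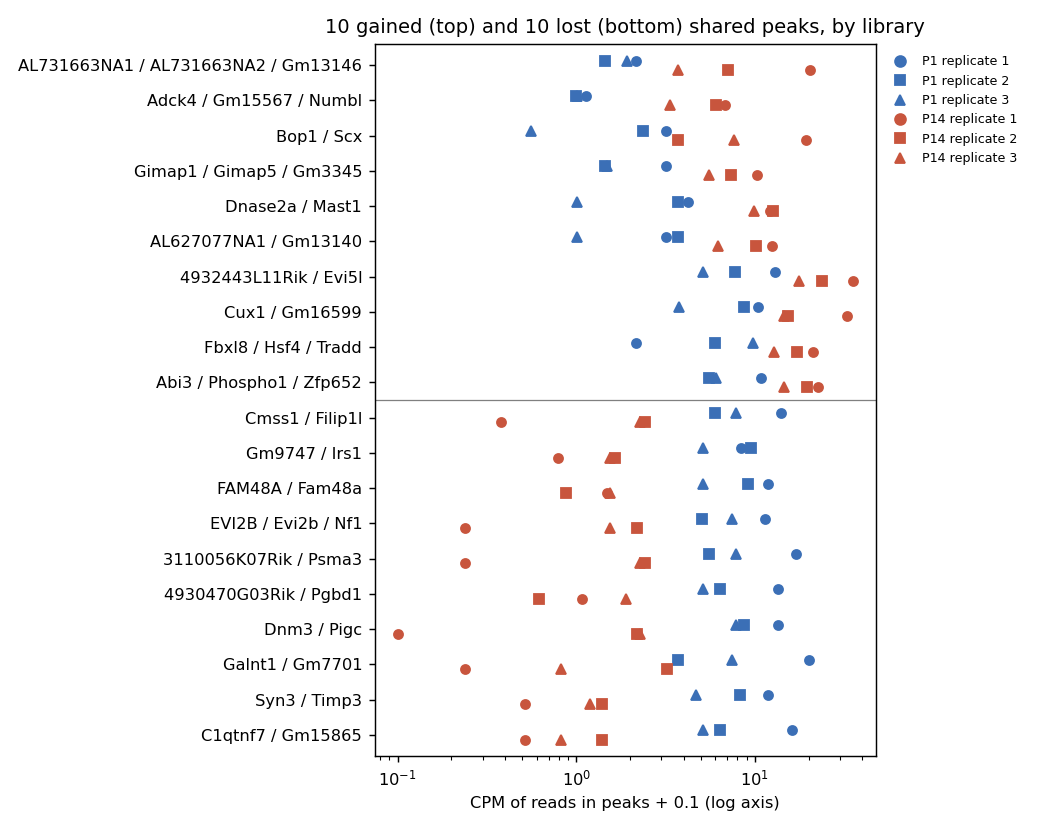
CPM of reads in peaks plus 0.1 (log axis) in each of the 6 libraries for the 10 gained (top) and 10 lost (bottom) shared peaks named by rule; blue, P1; red, P14; marker shape gives the replicate. No peak has overlapping ages, which the rule for naming them required. P14 replicate 1 is the highest P14 library in 9 of the 10 gained peaks. At Bop1 and Scx it held 139 reads against 14 and 21.

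Shared peaks whose genes start close by were set apart by the number of assigned genes with a start within 1 kb. With 0 such starts, 20 of 5270 tested peaks were gained and 80 (1.52%) lost. With 1 start, 4 of 780 were gained and 12 (1.54%) lost. With 2 or more, 0 of 114 were gained and 7 (6.14%) lost, against 2.42% of all peaks tested. DESeq2 also gave 0 and 7 (against 0.0920% gained and 2.70% lost among all peaks), and limma-voom 0 and 10 (against 0.107% and 4.34%). Of the 114, 13 had an edgeR unadjusted p under 0.05, against 7364 of all 96775 peaks. The median log2 change of the 114 was 0.02, and 7 peaks are few. By arrangement, 12 of 366 divergent pairs were lost (3.28%), 4 of 581 pairs side by side (0.688%) and 1 of 177 convergent pairs (0.565%). No test of these differences was made.

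The 7 lost peaks with 2 starts nearby were those of Derl2 and Mis12, 4930470G03Rik and Pgbd1, Cage1 and Riok1, Vti1a and Zdhhc6, Rabgap1, Zbtb26 and Zbtb6, Adal and Lcmt2, and Extl2 and Slc30a7. The span of Zbtb6 lay over 3 kb from its peak. Derl2, a factor of protein export from the endoplasmic reticulum, and Mis12, a kinetochore subunit, had 49, 30 and 27 reads in the P1 libraries and 15, 15 and 11 in the P14 libraries on chr11:71020536-71021954 (log2 change -2.42 ± 0.38 SE, edgeR adjusted p = 0.0245). Cage1 and Riok1, a kinase of ribosome maturation, had 40, 34 and 25 reads and then 18, 11 and 15 on chr13:38037803-38038925 (-2.22 ± 0.37 SE). Vti1a, a vesicle fusion protein, and Zdhhc6, a palmitoyltransferase, had 42, 33 and 25 and then 6, 22 and 9 (-2.41 ± 0.47 SE, -1.76 without P14 replicate 1 and -3.23 without P14 replicate 2). In these 3 peaks the raw reads of every P14 library were below those of every P1 library.

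The CpG content of the promoters beside these peaks was counted as well. For each peak within 1 kb of any start, the richest promoter window among those starts was taken. It held 20 or more CpG for 10 of 19 lost shared peaks (52.6%), for 203 of 965 not called (21%) and for 1 of 5 gained. The same shares for peaks of 1 gene were 14 of 47 lost (29.8%), 277 of 2466 not called (11.2%) and 3 of 5 gained (60%). These counts were chosen after the peaks had been seen and carry no test.

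The promoter windows that lay wholly inside shared peaks were mostly poor in CpG. Shared peaks held 266 windows with a median of 8 CpG, and 19 windows (7.14%) had 20 or more. In the stretches between peaks 29.6% of the windows had 20 or more, in peaks of 1 gene 4.69%, in peaks of no gene 1.14%, and among all windows 27%. The CpG-rich windows lay in 18 shared peaks, and all 18 were tested. None was called by edgeR (against 0.105% gained and 2.42% lost among all peaks), DESeq2 or limma-voom. Of the 18, 2 had an edgeR unadjusted p under 0.05, against 7364 of all 96775 peaks. The 18 had log2 changes from -0.49 to 1.22 with a median of 0.29 and a smallest edgeR adjusted p of 0.094.

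Several of these 18 peaks are given here, chosen after their values were seen. In the peak of Fkbp6 and Trim50, on chr5:135349421-135350624, the reads were 31, 47 and 33 at P1 and 201, 87 and 50 at P14, or 17.4 and 22.9 mean CPM within peaks (log2 change 0.41 ± 0.25 SE). The peak of Henmt1 with Gm12521 and Gm9857 had 49, 36 and 41 and then 129, 77 and 54 reads (-0.07 ± 0.24 SE). That of Dmrtb1 and Gm12899 had 52, 44 and 31 and then 217, 90 and 64 (0.35 ± 0.26 SE). All 3 peaks held reads in all 6 libraries. Reads were counted over whole peaks, so the reads over the printed windows alone are not known.

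Further peaks with a CpG-rich window held the promoters of Rad51c beside Tex14, a gene of germ cell bridges (-0.38 ± 0.31 SE), of Spata22, a gene of meiotic recombination (-0.11 ± 0.27 SE), of the testis poly(A) polymerase Papolb (-0.32 ± 0.26 SE), of Hsf2bp, also of meiotic recombination (0.31 ± 0.27 SE), and of Dmrtc2 (0.24 ± 0.26 SE). The largest values in the set were at Tbx1, a transcription factor of the cardiac outflow tract (1.22 ± 0.47 SE, from 10, 6 and 5 to 84, 20 and 16 reads), and at Gm13205 within Casz1, a zinc-finger gene of heart development (0.98 ± 0.3 SE, from 32, 27 and 22 to 259, 73 and 54 reads). Without P14 replicate 1 they were 0.72 and 0.6.

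Imprinted genes formed another group. A list of 52 imprinted genes had 24 members with a shared peak, in 32 peaks, of which 31 were tested. None was called by edgeR (against 0.105% gained and 2.42% lost among all peaks). Of the 31, 3 had an edgeR unadjusted p under 0.05, against 7364 of all 96775 peaks. DESeq2 called 0 and limma-voom called 1 as lost, that of Ddc. The median log2 change was 0.01, against 0.03 for all shared peaks. The ages were apart in 4 of the 31, at 1 peak each of Airn with Mas1 (lower at P14) and of Blcap with Nnat, H19 with Mir675 and Igf2 with Igf2as (higher). Among all peaks tested, every P14 library was above every P1 library in 4.84% and below in 7.05%. In several pairs an imprinted gene lies in an intron of its host. H13 and Mcts2, on chr2:152685640-152687997, had 74, 65 and 59 reads in the P1 libraries and 111, 113 and 64 in the P14 libraries, or 31.5 ± 5.83 and 22.6 ± 6.95 CPM within peaks (SD, n = 3; log2 change -0.49 ± 0.26 SE). Commd1 and Zrsr1 had 30.3 ± 3.87 and 24.3 ± 6.92 CPM (-0.3 ± 0.25 SE), Herc3 and Nap1l5 18.2 ± 1.64 and 16.1 ± 3.21 (-0.18 ± 0.25 SE), and the promoter peak of Blcap and Nnat 17.5 ± 2.81 and 15 ± 4.03 (-0.21 ± 0.27 SE). In each of these 4 the ages overlapped.

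Other imprinted loci had no call either. The 2 peaks of Gnas and its antisense gene Nespas had 45.4 ± 7.66 and 49.1 ± 11.2 CPM at P1 and 41.8 ± 4.67 and 61.4 ± 14.7 at P14. Peg10 and Sgce, which share a promoter region, had 20.2 ± 4.83 and 19.9 ± 6.25 CPM in their wider peak (log2 change 0.01 ± 0.27 SE), and their narrower peak did not pass the filter on low counts. Mest with Mir335 had 20.5 ± 3.12 and 22.4 ± 3.12 CPM, and Snrpn with Snurf 12.9 ± 3.51 and 10.1 ± 2. The peak of Airn and Igf2r over the Igf2r promoter printed above had 26, 28 and 11 reads in the P1 libraries and 136, 31 and 25 in the P14 libraries (0.28 ± 0.38 SE), and their other peak, on chr17:12741144-12743173, had 38, 34 and 24 and then 140, 68 and 32 (0.12 ± 0.28 SE).

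The Igf2 and H19 locus on chromosome 7 showed the widest spread within the list besides Ddc. Igf2 and its antisense transcript Igf2as had 2 peaks with log2 changes of 1.06 ± 0.35 and 0.65 ± 0.34 SE, and the reads of the first went from 17, 16 and 8 to 122, 53 and 25 (edgeR adjusted p = 0.151). H19 with Mir675 had changes of 0.52 ± 0.26 and -0.39 ± 0.24 SE in its 2 peaks. The value farthest from 0 was -2.18 ± 0.63 SE at 1700042O10Rik and Ddc, with 39, 14 and 7 reads in the P1 libraries and 6, 8 and 12 in the P14 libraries (edgeR adjusted p = 0.0765), and there the ages overlapped. It was -1.13 without P1 replicate 1 and -1.61 without P14 replicate 1.

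**Figure D5:**
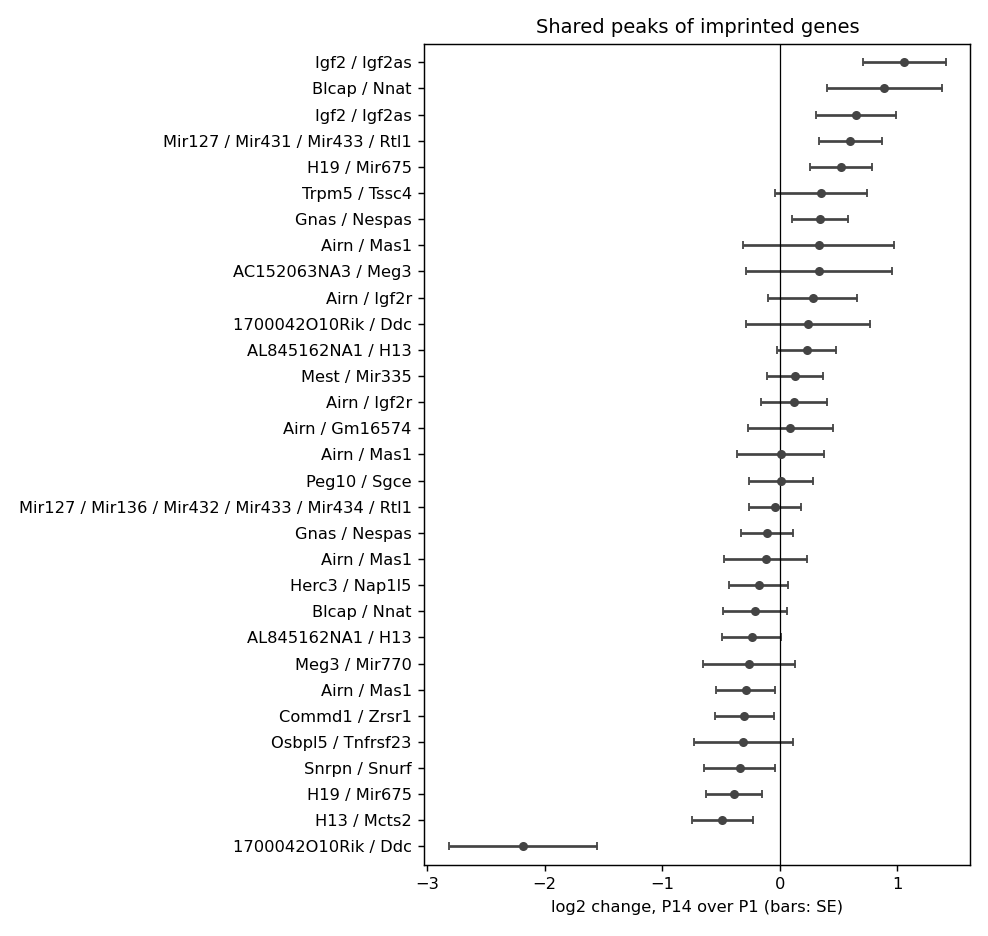
Log2 change from P1 to P14 within peaks with its SE (horizontal axis) for the 31 tested shared peaks of imprinted genes, 1 row per peak, named by its genes. No peak was called by edgeR or DESeq2, and limma-voom called that of Ddc; 29 of the 31 lie within 1 of 0, with Igf2 and Igf2as at 1.06 and 1700042O10Rik and Ddc at -2.18 outside.

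MicroRNA clusters took part in further shared peaks. Of the 1005 hairpins in the RefSeq table, 118 lay wholly inside 88 shared peaks, and 30 of them lay in 14 peaks on chromosome 12. Of the 88 peaks, 85 were tested and 0 were called by edgeR (against 0.105% gained and 2.42% lost among all peaks), with log2 changes from -0.64 to 1.1 and a median of 0.01. DESeq2 and limma-voom called 0 as well. Of the 85, 9 had an edgeR unadjusted p under 0.05, against 7364 of all 96775 peaks. In the imprinted domain of chromosome 12, from the start of Meg3 to the end of Mirg (208 kb), 19 shared peaks were found and tested, with none called (against the same shares), log2 changes from -0.48 to 0.71 and a median of -0.06. DESeq2 and limma-voom also called 0, and 1 had an edgeR unadjusted p under 0.05 (against the same 7364 of 96775 peaks). In none of the 19 were the ages apart, against 4.84% of all peaks with P14 above and 7.05% with P14 below.

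The peak of Rtl1, a retrotransposon-derived gene of the placenta, with Mir127, Mir136, Mir432, Mir433 and Mir434 on its opposite strand was the highest of the domain. Its reads numbered 123, 183 and 136 in the P1 libraries and 531, 236 and 188 in the P14 libraries, or 69.4 ± 11.4 and 67.7 ± 6.32 CPM (SD, n = 3; log2 change -0.04 ± 0.22 SE). The neighbouring peak of Mir127, Mir431, Mir433 and Rtl1 had 19.2 ± 7.61 and 28.9 ± 5.16 CPM (0.6 ± 0.27 SE, edgeR adjusted p = 0.547). Meg3 itself, a long noncoding RNA, with Mir770 had 8.39 ± 3.89 and 6.78 ± 2 CPM.

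The miR-17-92 cluster, whose microRNAs promote cell growth and are known for their part in heart muscle cell proliferation, lay in a single peak with 7 symbols on chr14:115043543-115044775. Its reads numbered 14, 26 and 18 in the P1 libraries and 52, 56 and 37 in the P14 libraries, with a log2 change of 0.32 ± 0.34 SE within peaks, not a called difference. Its mature microRNAs are shown because 1 methylation value covers all of them. Capitals mark the seed, bases 2 to 8. miR-17-5p and miR-20a-5p share the seed AAAGUGC, miR-19a-3p and miR-19b-3p share GUGCAAA, and miR-18a-5p and miR-92a-3p have seeds of their own in the cluster.
miR-17-5p: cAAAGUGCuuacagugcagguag
miR-20a-5p: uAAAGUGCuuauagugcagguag
miR-18a-5p: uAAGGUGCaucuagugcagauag
miR-19a-3p: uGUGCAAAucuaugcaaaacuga
miR-19b-3p: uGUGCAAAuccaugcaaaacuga
miR-92a-3p: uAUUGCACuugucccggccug

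The other peaks with the most symbols also gave no call. The peak with 8 symbols on chromosome 1 lay in the Ugt1a locus, where variable first exons of glucuronosyltransferases share their last exons, and had 5, 10 and 11 reads in the P1 libraries and 29, 16 and 11 in the P14 libraries (log2 change -0.01 ± 0.48 SE). The other peak with 8 symbols, in the Sfmbt2 microRNA cluster on chromosome 2, held 8, 11 and 19 and then 11, 7 and 8 reads and did not pass the filter on low counts. The widest shared peak, 13448 bp over the skin gene Flg and 5 clone-named models, had 16, 10 and 9 and then 79, 34 and 26 reads. Mir33 within Srebf2, a pair known for control of cholesterol, had the next widest peak at 9454 bp, with 96.9 and 93.2 mean CPM (-0.05 ± 0.22 SE), and Ctu2 with Fam38a (Piezo1), a mechanically gated channel, followed at 9017 bp with 109 and 132 (0.29 ± 0.24 SE).

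The densest shared peaks per kb were those of Cdk8 and Mir5105 (166, 92 and 51 reads in the P1 libraries and 638, 277 and 187 in the P14 libraries; log2 change 0.62 ± 0.32 SE), of 8030451A03Rik and the matrix gene Tnc (1.05 ± 0.34 SE), of Dennd1c and Tubb4a (0.38 ± 0.26 SE), of Gm15564 and Kpna1 (-0.16 ± 0.25 SE) and of Cmss1 and Filip1l. Cmss1 and Filip1l shared 12 peaks in all. The dense peak, on chr16:57390894-57392014, went from 62, 46 and 20 to 660, 145 and 77 reads (1.39 ± 0.4 SE, edgeR adjusted p = 0.0696). The ages overlapped in this peak, and without P14 replicate 1 the log2 change was 0.71 (edgeR adjusted p = 0.773), while another peak of the same genes was among the lost.

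The remaining gene lists covered heart and developmental genes, and 7 of their shared peaks passed the test (against 0.105% gained and 2.42% lost among all peaks). Wnt, hedgehog, BMP and FGF signalling had 136 tested, 1 gained (Axin2) and 1 lost, and a median log2 change of 0.03. Of the 136, 31 had a gene of the list within 3 kb, with 1 gained, 0 lost and a median of 0.01, and the distant symbol Fgfr2 gave the others. The lost peak was one of these, given to Ctbp2 and Fgfr2, with the span of 1 of them over the peak, and had 20, 16 and 12 reads in the P1 libraries and 14, 5 and 1 in the P14 libraries (-2.47 ± 0.55 SE). Collagens and matrix had 19 tested, 1 gained (Bop1 and Scx) and 1 lost (Syn3 and Timp3), with a median of 0.23. Cell cycle and DNA replication had 10 tested and 2 lost, Derl2 with Mis12 and AC112688NA1 with the origin-binding factor Orc5 (-2.62), with a median of -0.05. Calcium handling and ion channels had 19 tested and 1 lost, Cacnb2, a subunit of the cardiac L-type calcium channel, with Gm13268 (-2.31 ± 0.53 SE, -1.69 without P1 replicate 1; 32, 12 and 16 reads in the P1 libraries and 8, 12 and 5 in the P14 libraries).

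No shared peak passed edgeR's test in the other lists. Between 1 and 2 shared peaks per list had an edgeR unadjusted p under 0.05, and 8 in the sarcomere list. Among all 96775 peaks tested, 7364 had such a p. DESeq2 and limma-voom each called 1 peak of the sarcomere list as gained. It was that of Myh7b, a slow myosin heavy chain gene, and Trpc4ap, named after its values were seen, with 76, 63 and 52 reads in the P1 libraries and 510, 173 and 134 in the P14 libraries (0.86 ± 0.25 SE; adjusted p = 0.0785 with edgeR, 0.0372 with DESeq2 and 0.0186 with limma-voom). limma-voom also called the Fancc peak of the DNA repair list as lost. Sarcomere and heart muscle structure had 29 tested with a median of 0.18, and the peak nearest the threshold was that of Tcap (telethonin), a protein of the sarcomere's Z-disc, and Pnmt, with 2, 5 and 5 reads in the P1 libraries and 81, 18 and 14 in the P14 libraries (1.93 ± 0.54 SE, edgeR adjusted p = 0.0646). Cardiac transcription factors had 24 tested (median 0.23), led by the Tbx1 peak. DNA repair had 24 (median 0.02), led by Fancc with 2010111I01Rik (-1.47 ± 0.41 SE, edgeR adjusted p = 0.0609). Glycolysis had 18 (median 0.1, Tpi1 with Usp5 -0.63), DNA methylation and chromatin 15 (median 0.05, the methyltransferase gene Dnmt3a with Gm10485 1.29), clustered protocadherins and UGT1A 14 (median 0.09, Pcdhga3 0.61), fatty acid oxidation and mitochondria 11 (median -0.07, Cox6a2 with Itgad 1.13), and endothelial and blood cell markers 5 (median 0.26, Itgam with Itgax -0.77). The span of Itgam lay over 3 kb from this peak. A list gene lay within 3 kb in 4 of the 5 endothelial and blood cell peaks, 21 of the 24 DNA repair peaks and 28 of the 29 sarcomere peaks. The Hox list had 2, and Hoxb3 with Gm11536 stood at 1.44 ± 0.49 SE (edgeR adjusted p = 0.173). All peaks tested had a median of 0 on this scale.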

How the data were processed

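The deposited table holds raw read counts per region for 6 libraries (3 at P1, 3 at P14). Per the labels' protocols, 1 microgram of sonicated DNA was enriched with MethylMiner and sequenced for 36 cycles. Per the submitters' processing notes BWA, MACS, bedtools and edgeR 3.2.4 were used with GRCm38 and mm10; the sources used here do not give their settings. Repeated lines of a region were merged (221524 lines, 213957 regions). The table mixes peaks with the stretches between them. They were told apart by shared borders, gene names and read density, and 17587 regions were settled by density alone, a rule right for 94.4% of the regions where it could be checked. All shared peaks have names. The other peaks enter the scaling and the adjustment, and on peaks with a gene name alone 25 shared peaks were gained and 97 lost (0.151% and 2.04% of the 66050 tested).

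Counts were tested with edgeR 4.0.16, once over all regions and once within peaks. The settings were quasi-likelihood, TMM, 1 filterByExpr filter over all regions, Benjamini-Hochberg over all tested and a threshold of 0.05. On counts simulated for the peaks, the fit within peaks called 68 of 100 changed 4-fold, 6 of 100 changed 2-fold and 8 of 96575 unchanged. CPM values use the reads in peaks after TMM. DESeq2 1.42.0 and limma 3.58.1 (voom) were alternatives. Genes were matched by symbol to RefSeq (GRCm38.p6). Coordinates are 1-based. The members and gene lists were chosen with earlier results of these data known. Peaks were named by rule: the 10 largest gains and 10 largest losses without overlap of the ages, the 3 smallest p in each direction over all regions, the 5 with the most genes, the 3 widest, the 5 densest, the smallest p per list and per arrangement. Deviations of same-numbered libraries from their group means correlated at -0.049, -0.046 and 0.02, so numbers were not taken to pair libraries. Nothing besides the design text says that replicates came from separate animals, so p-values measure the spread between these libraries. Intervals for counting error were not used.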

Additional observations from a re-analysis of the deposited data

How the results depend on the processing

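Over all regions, the 0 shared peaks called became 24 with DESeq2 (all higher; all regions 0.0392% higher, 0.000478% lower), 66 without P14 replicate 1 (64 higher and 2 lower; all regions 0.169% and 1.43%) and 343 with both replicates numbered 1 left out (329 higher and 14 lower, 5.34% and 0.227%; all regions 1.23% and 2.46%); leaving out each library in turn gave 0 to 66. Within peaks, the 24 gained shared peaks became 710 when scaled to the reads between peaks (11.5%, all peaks 7.52%). With both replicates numbered 1 left out they were 11 (0.178%, all peaks 0.0413%). With 2 or more symbols that are neither Gm- nor Rik-named they were 12 of 3344 tested. With a library left out they were 0 to 18 (0% to 0.292%, all peaks 0% to 0.0775%). The 99 lost became 38 with library totals and no TMM factor (0.616%, all peaks 0.723%) and 160 with limma-voom (2.6%, all peaks 4.34%). They were 4 when scaled to the reads between peaks (0.0649%, all peaks 0.0527%). With both replicates numbered 1 left out they were 20 (0.324%, all peaks 0.293%). The stricter symbol rule gave 62 of 3344 tested. With a library left out they were 0 to 71 (0% to 1.15%, all peaks 0% to 1.45%). With the replicate number as a block, 0 were gained and 0 lost, as among all peaks. P1 replicates 1 and 2 did not correlate best with the P14 library of their own number. RLE size factors, no filter, DESeq2, named peaks alone and, both added after seeing the data, a filter over peaks alone and leaving out peaks shared only through a symbol over 3 kb away kept both counts within 1.5 times. The 20 peaks named by size of change kept their direction in each refit. They had been chosen for large changes without overlap of the ages, so this was nearly bound to hold. None of the 20 passed without P14 replicate 1 or with the replicate block. With the filter over peaks alone 4 of them were not tested, and the stricter symbol rule refits nothing. The difference in the share of peak reads ran from 0.42 to 1.47 percentage points and that in density from -0.00513 to 0.053 with a library left out. The cause of these shifts was not tested. Lost peaks had a median of 22 reads per library at P1 and 9.33 at P14, so their changes rest on few reads.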
